A study of Rattus norvegicus with 8 samples.

Results

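The dopamine receptor genes Drd1 to Drd5 and Ppp1r1b, the gene of the phosphoprotein DARPP-32, were measured in rat frontal cortex after repeated olanzapine or saline. Members were chosen by gene name, with earlier results of these data known and no measured value in the rule: every probe set whose single gene symbol in the platform annotation was one of these 6 genes was taken, however dim. This gave 9 probe sets for 6 genes, out of 31042 probe sets that were not controls and 14217 gene symbols, and 0 further probe sets listed a member among several genes. Drd1 had 2 probe sets, Drd4 had 3, and Drd2, Drd3, Drd5 and Ppp1r1b had 1 each. The animals were male Sprague-Dawley albino rats of about 200 g at the start, and 20 were assigned at random to each treatment. Olanzapine, an antipsychotic drug that blocks dopamine and serotonin receptors, was injected intraperitoneally at 2 mg/kg/day for 21 days, and the control animals received saline for the same time. RNA of the frontal cortex of 4 animals per group was hybridised, 1 array per animal, and each array is called here by its group and animal number. The saline animals were 14, 15, 17 and 19 and the olanzapine animals were 9, 14, 18 and 19.

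Dopamine acts through receptors coupled to G proteins. Those encoded by Drd1 and Drd5 form the D1-like class, which raises cyclic AMP, and those encoded by Drd2, Drd3 and Drd4 form the D2-like class, which lowers it. DARPP-32 stands downstream of both: phosphorylated by protein kinase A it inhibits protein phosphatase 1, and phosphorylated by Cdk5 it inhibits protein kinase A instead. Drd1, Drd2 and Ppp1r1b are known best from the striatum, where medium spiny neurons carry them at high levels. In the cortex the D1 receptor and DARPP-32 are found mainly in deep-layer pyramidal neurons. The D2 receptor is the main target shared by antipsychotic drugs.

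The promoters of 3 receptor genes are shown because the results turn on them, Drd1 as the receptor gene with the brightest probe set and Drd2 and Drd4 as the genes with the smallest unadjusted p-values. Each is the RefSeq window on GRCr8 from 250 bases before to 50 bases after the annotated start, read 5′ to 3′ on the gene's strand. Drd1 lies at chr17:10546354-10546653 on the plus strand, Drd2 at chr8:58605153-58605452 on the plus strand and Drd4 at chr1:205825687-205825986 on the plus strand. Capitals mark the GC box GGGCGG or its reverse complement CCGCCC, searched on both strands with overlaps allowed.
Drd1: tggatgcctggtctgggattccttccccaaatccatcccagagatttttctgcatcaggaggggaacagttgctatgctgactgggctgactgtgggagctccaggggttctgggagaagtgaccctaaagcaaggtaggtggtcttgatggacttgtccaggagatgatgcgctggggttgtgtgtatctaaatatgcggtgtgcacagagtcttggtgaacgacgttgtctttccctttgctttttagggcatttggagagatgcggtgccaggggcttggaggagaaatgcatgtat
Drd2: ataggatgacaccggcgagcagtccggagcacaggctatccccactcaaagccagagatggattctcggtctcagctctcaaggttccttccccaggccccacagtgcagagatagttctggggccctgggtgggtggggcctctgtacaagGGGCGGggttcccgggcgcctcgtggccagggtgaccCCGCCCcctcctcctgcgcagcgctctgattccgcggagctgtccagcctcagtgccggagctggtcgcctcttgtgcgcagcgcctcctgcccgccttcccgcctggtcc
Drd4: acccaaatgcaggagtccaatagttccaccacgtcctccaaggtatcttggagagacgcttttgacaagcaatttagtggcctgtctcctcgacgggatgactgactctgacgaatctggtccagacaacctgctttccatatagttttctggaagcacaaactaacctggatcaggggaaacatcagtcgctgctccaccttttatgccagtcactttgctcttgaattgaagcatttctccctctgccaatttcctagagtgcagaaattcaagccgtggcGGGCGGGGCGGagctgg
The Drd1 window held 0 GC boxes and the Drd2 and Drd4 windows 2 each, which in Drd4 overlap by 1 base. Of 33469 such windows of all genes, 33.1% held at least 1 GC box. The letters TATAAA, searched on both strands, occurred in 0 of the 5 member windows that were found, against 14.2% of all windows. The GC content was 51.7% for Drd1, 67.3% for Drd2, 39.3% for Drd3, 50.3% for Drd4 and 67.0% for Drd5, with a median of 51.7% over all windows. These are descriptions of the letters in the windows.

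Most of the members were dim on these arrays. The values are the authors' linear probe set intensities, and they were compared as log2(intensity + 63.4), where 63.4 is the lower quartile over the whole deposited table. On such a scale the change of a dim gene comes out smaller than it is. By mean log2 value over the 8 arrays, Ppp1r1b (1372208_at) stood at percentile 67.8 of all probe sets tested and the brighter Drd1 probe set (1368478_at) at percentile 63.1. The other Drd1 probe set (1368479_at) lay at percentile 40.1. The remaining members were below the 40th percentile: Drd4 at 33.2, 24.1 and 19.6 for its 3 probe sets, Drd3 at 20.7, Drd2 at 12.0 and Drd5 at 4.17. Thus 3 of the 9 member probe sets would pass a filter at the 40th percentile, all of them for Drd1 or Ppp1r1b, and none for a D2-like receptor or Drd5. For reference, 15 genes typical of liver, muscle, kidney, testis, pancreas or lung had a probe set on the array, and the brightest probe set of 4 of them also passed that limit. Detection calls were not used here, so no member below it can be called present or absent. The brightness differs between probe sets for reasons other than the amount of RNA, and the percentiles give no order of expression among the genes.

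**Figure D1:**
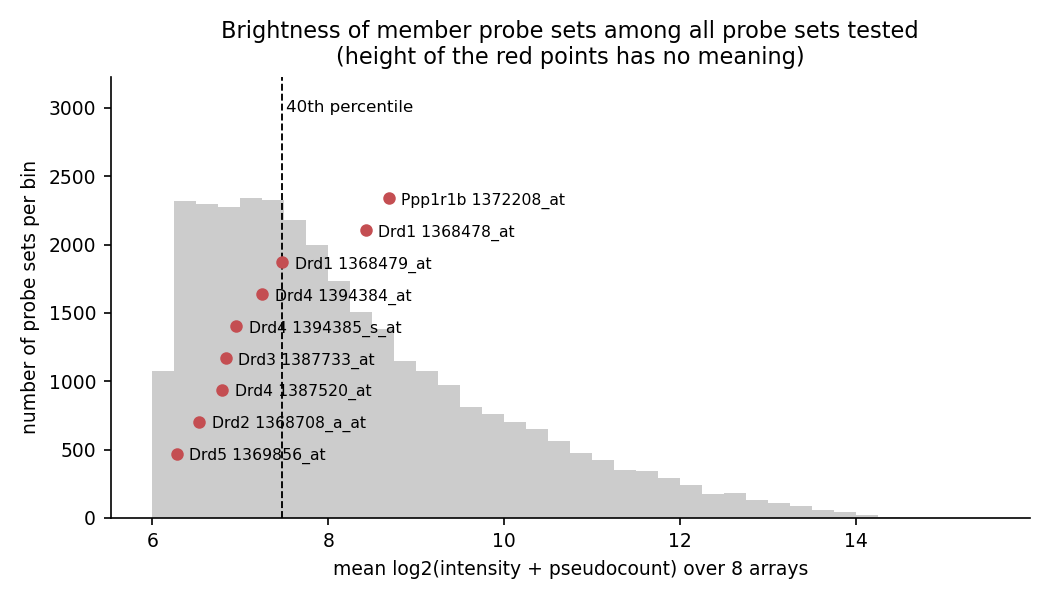
Number of probe sets (y axis) by mean log2(intensity + 63.4) over the 8 arrays (x axis), with the 9 member probe sets as red points, whose height carries no value, and the 40th percentile as a dashed line. Ppp1r1b and Drd1 1368478_at lie clearly to the right of the line, Drd1 1368479_at lies on it and the other 6 lie to the left.

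The comparison asked whether 21 days of olanzapine changed the transcript level of its own dopamine receptor targets and of their common effector. No member probe set passed the adjusted test. Drd2 had the smallest unadjusted p-value, with a deposited intensity (mean ± SD over n = 4 animals) of 53.3 ± 24.7 after saline and 11.9 ± 6.89 after olanzapine, but its adjusted p was 0.612 by limma, a linear model fitted to every probe set with moderated variances. The Drd4 probe set 1387520_at was at 31.5 ± 17.2 in saline and 69.6 ± 22.3 in olanzapine, with an adjusted p of 0.686 by limma. Ppp1r1b, at 369 ± 121 in saline and 345 ± 86.6 in olanzapine, and Drd1 1368478_at, at 303 ± 90.3 and 274 ± 88.9, differed by less than the spread between animals. Of the 9 member probe sets 4 had a higher and 5 a lower mean log2 value in olanzapine, and the values of the groups overlapped in all 9.

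Over the whole array 0 of 31042 probe sets (0%) had a limma adjusted p under 0.05, and the smallest adjusted p was 0.503. At an unadjusted p under 0.05 there were 2173 of 31042 probe sets, or 7%, and 2 of the 9 members. The lower one was Drd2, where 3.09% of all probe sets were lower at this level, and the higher one was Drd4 1387520_at, where 3.91% were higher. Groups did not overlap in 0 members, against 3.8% of all probe sets. The median log2 difference, olanzapine minus saline, was -0.066 over the members and 0.021 over all probe sets, and the median size of the difference without its sign was 0.29 over the members and 0.14 over all probe sets.

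**Figure D2:**
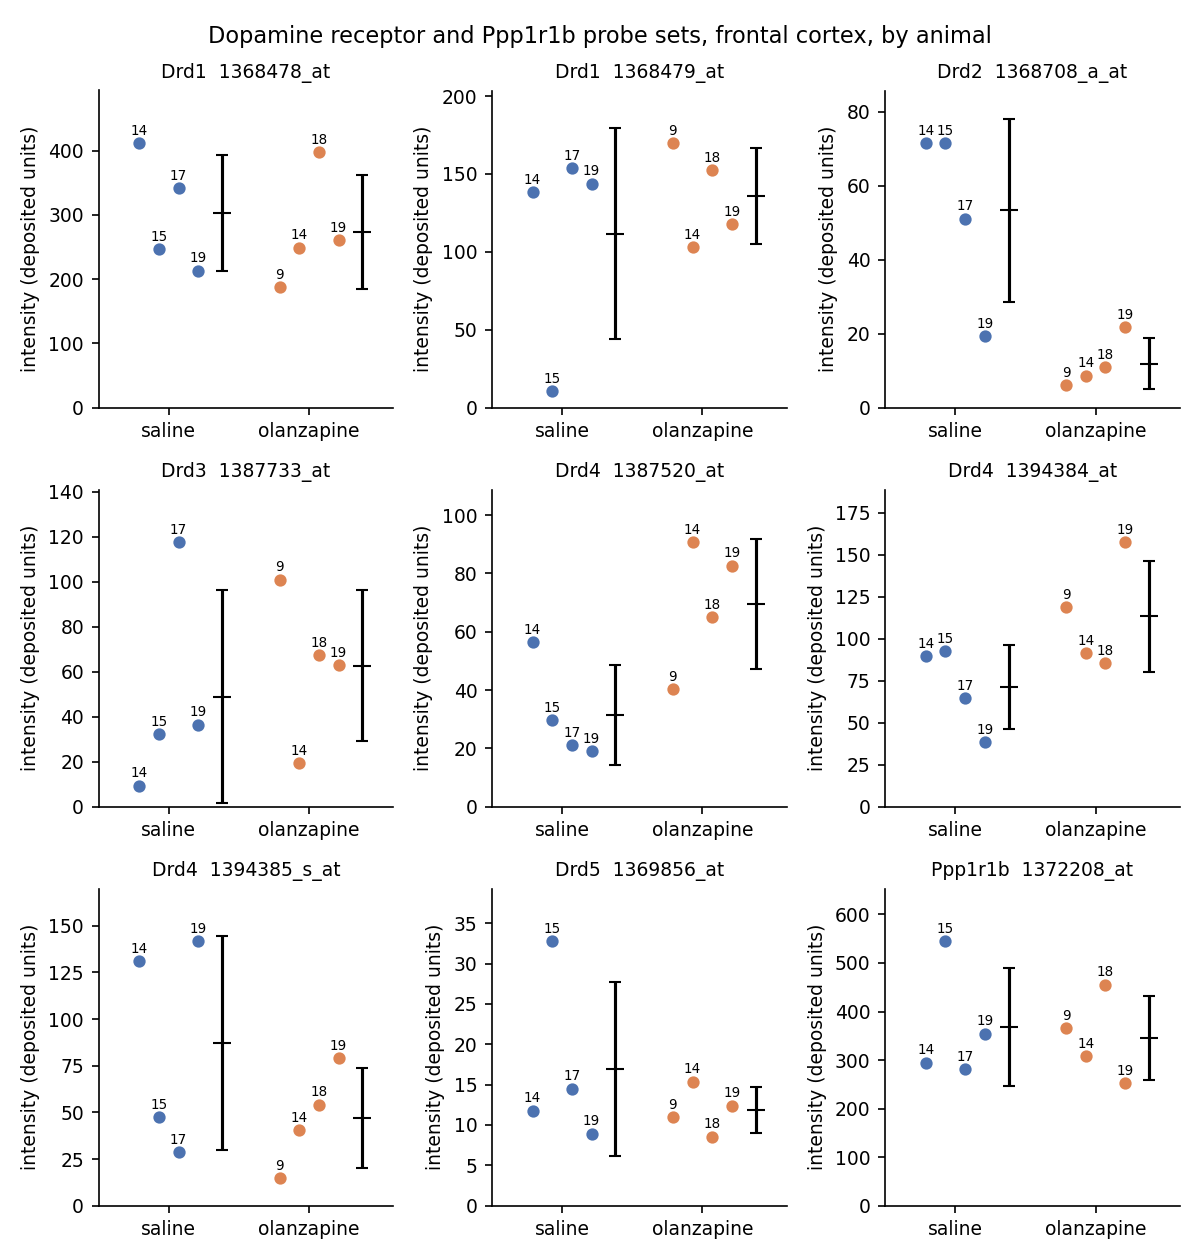
Deposited intensity (y axis, 0 at the bottom) of each member probe set on each array, 4 saline animals in blue and 4 olanzapine animals in orange, each point marked with its animal number, with mean and SD as a black bar beside the points. Drd2 was at 51.1 to 71.5 in 3 saline animals and at 6.08 to 21.8 in olanzapine, with saline 19 at 19.2 inside the olanzapine range.

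Among the D2-like receptors, Drd2 encodes the autoreceptor and postsynaptic receptor that antipsychotics block. Its probe set 1368708_a_at, named with the suffix that Affymetrix gave to probe sets matching alternative transcripts of 1 gene, read 71.5, 71.4, 51.1 and 19.2 in saline 14, 15, 17 and 19. It read 6.08, 8.69, 10.9 and 21.8 in olanzapine 9, 14, 18 and 19. Of the 4 saline animals 3 therefore lay above all olanzapine animals, and saline 19 lay below olanzapine 19. The log2 difference was -0.61 (SE 0.18), with a 95% interval, as a fold of olanzapine over saline, of 0.500 to 0.858 before any adjustment for the number of probe sets. The unadjusted p was 0.00515, rank 256 of 31042, and permuting the group labels of the arrays in all 70 ways gave an exact two-sided p of 0.0571, where 0.0286 is the smallest possible. The size of the difference rested on how dim values were treated. As olanzapine over saline, the ratio of the deposited means was 0.222, the fitted fold on the log2(intensity + 63.4) scale was 0.655, and the log2 difference was -2.05 with 1 added in place of 63.4 and -0.25 with 200 added. It was negative with each single array left out, between -0.77 without saline 19 (limma adjusted p 0.233) and -0.53 without saline 14. The adjusted p in all alternatives run ran from 0.233 to 0.984. The probe set was dim, at percentile 12.0, and whether its readings came from Drd2 RNA was not tested. The muscle gene Ckm, named after its value was seen, was at 53.1 ± 40.3 in saline and 17.3 ± 2.46 in olanzapine. Its log2 difference was -0.47 (SE 0.22), at percentile 13.0. Of the 15 genes typical of other tissues 10 were higher and 5 lower, and 0 had an unadjusted limma p under 0.05. In bulk tissue, fewer cells of a type and less RNA per cell cannot be told apart either.

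Drd4 encodes the D2-like receptor that is known from the prefrontal cortex, and its 3 probe sets did not move together. Probe set 1387520_at read 56.3, 29.6, 21.0 and 19.0 in saline 14, 15, 17 and 19 and 40.3, 90.6, 64.9 and 82.7 in olanzapine 9, 14, 18 and 19. Here 3 olanzapine animals lay above all saline animals, and olanzapine 9 lay below saline 14. The log2 difference was 0.49 (SE 0.20), with an unadjusted limma p of 0.0301 and an exact permutation p of 0.0571. The unadjusted limma p was 0.0696 to 0.0788 without saline 17, saline 19, olanzapine 14 or olanzapine 19. Probe set 1394384_at read 89.5, 92.6, 64.5 and 38.4 in saline and 119, 91.5, 85.5 and 157 in olanzapine, in the same order of animals. Its log2 difference was 0.39 (SE 0.23, exact permutation p = 0.143), with olanzapine 14 and 18 inside the saline range. Probe set 1394385_s_at, whose suffix marks probes shared by several transcripts, read 131, 47.3, 28.7 and 142 in saline and 14.6, 40.4, 54.2 and 79.1 in olanzapine. It differed the other way, by -0.40 (SE 0.29, exact permutation p = 0.286), with saline 14 and 19 above all other animals, and by -0.22 without saline 19 and -0.60 without saline 17. Over the 8 arrays Pearson's r was 0.66 between the first pair, -0.019 between the first and the third and -0.34 between the second and the third, given as a description of 8 points that share their arrays. All 3 probe sets carry the same gene symbol and 2 of them come from the same sequence record in the annotation, so the Drd4 data gave no single direction.

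Drd3 encodes the D2-like receptor of the ventral striatum and islands of Calleja. It read 9.36, 32.3, 118 and 36.5 in saline 14, 15, 17 and 19 and 101, 19.4, 67.5 and 62.9 in olanzapine 9, 14, 18 and 19. Each group held 1 value under 20 and another above 100, and the ranges overlapped almost fully. On the log2 scale the groups differed by 0.21 (SE 0.29), with a 95% interval of -0.42 to 0.84. It was 0.47 without saline 17 and 0.029 without saline 14, so that single animals set its size.

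Among the D1-like receptors, Drd1 encodes the most abundant dopamine receptor of the cortex. Probe set 1368478_at read 411, 246, 341 and 213 in saline 14, 15, 17 and 19. It read 187, 249, 398 and 260 in olanzapine 9, 14, 18 and 19. The highest animals of the groups were at 411 and 398 and the lowest at 213 and 187, and the groups overlapped. Olanzapine differed from saline by -0.12 on the log2 scale (SE 0.23), with an exact permutation p of 0.686. As a fold, the 95% interval of olanzapine over saline ran from 0.651 to 1.30. The difference was 0.013 without saline 14 and 0.0077 without olanzapine 9.

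The second Drd1 probe set, 1368479_at, read 138, 10.6, 154 and 144 in saline and 170, 103, 152 and 118 in olanzapine, in the same order of animals. Saline 15 lay far below the other 7 arrays, and those 7 lay between 103 and 170. The log2 difference was 0.29 (SE 0.34, exact permutation p = 0.714) and turned to -0.079 without saline 15. The 2 Drd1 probe sets thus differed in sign with all arrays, and the second was negative as well once that array was left out. Their Pearson's r over the 8 arrays was 0.18.

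Drd5 encodes the other D1-like receptor and had the dimmest probe set of the members. It read 11.8, 32.7, 14.5 and 8.91 in saline 14, 15, 17 and 19 and 11.0, 15.4, 8.55 and 12.4 in olanzapine 9, 14, 18 and 19. Saline 15 was the highest animal and the other 7 lay between 8.55 and 15.4. The log2 difference was -0.087 (SE 0.12), and it was 0.0019 without saline 15. The narrow 95% interval of -0.35 to 0.18 belongs to a scale on which 63.4 was added to values mostly under 20, and it gives no limit on the change of the transcript.

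Ppp1r1b had the brightest probe set of the members. It read 295, 545, 282 and 354 in saline 14, 15, 17 and 19. It read 365, 309, 455 and 252 in olanzapine 9, 14, 18 and 19. The animal with the highest value, saline 15, and the one with the lowest, olanzapine 19, were at the outer ends of groups that otherwise overlapped. The log2 difference was -0.066 (SE 0.21, limma adjusted p 0.969, exact permutation p = 0.800). As a fold, the 95% interval of olanzapine over saline ran from 0.695 to 1.31. The sign was not fixed: the difference was 0.11 without saline 15 and 0.050 without olanzapine 19.

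**Figure D3:**
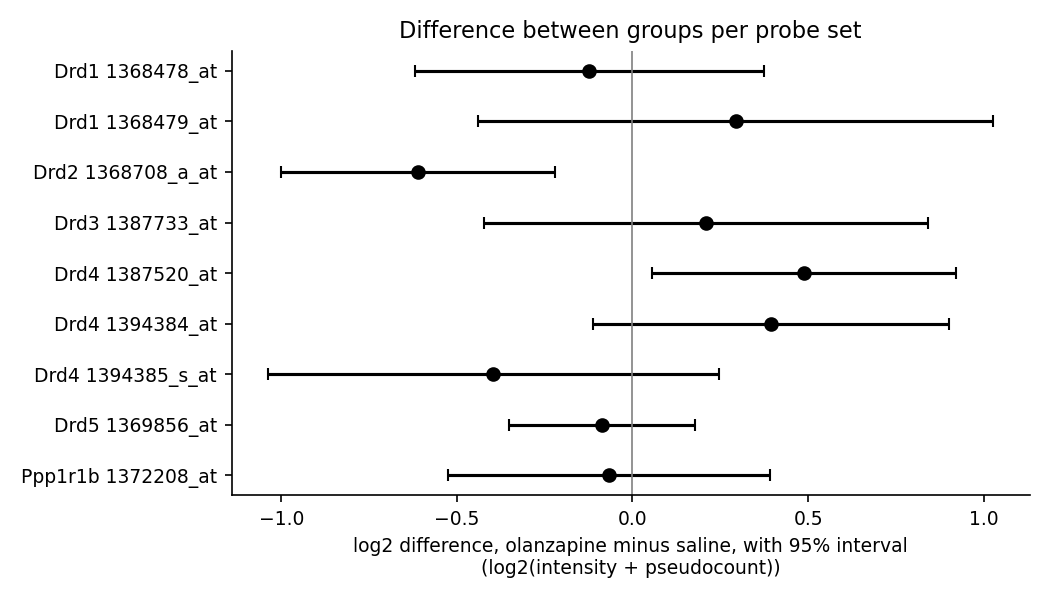
Log2 difference, olanzapine minus saline, of each member probe set on the log2(intensity + 63.4) scale (x axis), with its 95% interval from limma before adjustment, 4 arrays per group. The intervals of Drd2 (upper end -0.22) and Drd4 1387520_at (lower end 0.056) lie to 1 side of 0, and those of the other 7 probe sets cross it.

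The members also differed in how much they varied between animals of a group. The coefficient of variation of the deposited intensity was 29.8% in saline and 32.5% in olanzapine for Drd1 1368478_at, and 32.9% and 25.1% for Ppp1r1b. It was 46.2% and 58.1% for Drd2 and 96.6% and 53.4% for Drd3. The pooled SD within groups on the log2 scale had a median of 0.27 over all probe sets. It was 0.34 for Ppp1r1b, 0.36 and 0.55 for the Drd1 probe sets, 0.49 for Drd3 and 0.48 for Drd4 1394385_s_at. It was 0.25 for both Drd2 and Drd4 1387520_at, 0.27 for Drd4 1394384_at and 0.14 for Drd5. Between the highest and lowest of the 8 arrays the deposited intensity spanned 2.19-fold for Drd1 1368478_at, and 2.16-fold for Ppp1r1b. The other 7 probe sets spanned 3.83-fold in Drd5 to 16.0-fold in Drd1 1368479_at, with 11.8-fold in Drd2 and 12.6-fold in Drd3.

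Because Drd1, Drd2 and Ppp1r1b are typical of the striatum, markers of striatal medium spiny neurons were set beside them. Of 15 such genes 13 had a probe set with a single symbol, 8 of these passed the 40th percentile, 5 were higher and 8 lower in olanzapine, and 0 passed the test, adjusted or not, with a median log2 difference of -0.028. Their summed intensity was 5634 to 6115 in saline and 5461 to 6426 in olanzapine. The 2 arrays with the highest Ppp1r1b, saline 15 and olanzapine 18, had the lowest sum of their groups, 5634 and 5461. These arrays were picked by their values, and the sum leans on a few bright genes. Pde10a and Penk had the highest means of the list, 2008 and 1634 in saline. The opioid peptide precursor gene Penk was at 1634 ± 348 in saline and 1559 ± 141 in olanzapine (SD, n = 4 each). Pdyn, which encodes prodynorphin, was at 502 ± 114 and 508 ± 188, and Tac1, which encodes substance P, at 235 ± 68.6 and 287 ± 91.2. Adora2a, the adenosine receptor gene that marks medium spiny neurons with the D2 receptor, was dim, at 76.7 ± 52.1 and 47.4 ± 33.3. Its log2 difference was -0.31 (SE 0.30), and it was -0.097 without saline 19 and -0.56 without saline 15. Of the 2 Adora2a probe sets only 1 was lower. No marker was at 0, but neither was any of the 15 genes typical of other tissues, so this does not show that a marker was expressed. The part of striatal tissue in the Drd2 difference and in the Ppp1r1b values was not tested.

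The cortical label was checked with markers of excitatory cortical neurons, of which 8 of the 9 on the array passed the 40th percentile. The vesicular glutamate transporter gene Slc17a7 was at 2352 ± 197 in saline and 2256 ± 57.5 in olanzapine. Tbr1, a transcription factor gene of deep cortical layers, was the 1 marker below that limit. Their median log2 difference was 0.029, with 5 higher and 4 lower. Their summed intensity was 29006 to 34533 in saline and 25095 to 27367 in olanzapine, and the transcription factor gene Mef2c, named after its value was seen, made up most of it. Mef2c was the only one at an unadjusted p under 0.05, with a log2 difference of -0.40 (SE 0.11) that was -0.067 after quantile normalization. Of the 10 markers of deep layers, where cortical Drd1 and Ppp1r1b are known from, 8 passed that limit, 6 were higher and 4 lower, and 0 had an unadjusted p under 0.05. Tle4, a layer 6 repressor gene, differed by 0.011 (SE 0.10) and Foxp2 by -0.028 (SE 0.29). Of 7 glial and vascular markers 3 were higher and 4 lower, and the only one at an unadjusted p under 0.05 was Cx3cr1, a microglial receptor gene, named after its value was seen. Cx3cr1 was also dim, at 70.3 ± 22.3 in saline and 20.9 ± 18.4 in olanzapine (log2 difference -0.68, SE 0.20). The astrocyte gene Gfap differed by -0.25 (SE 0.22), and by -0.046 without olanzapine 19. The myelin gene Mbp differed by 0.19 (SE 0.22) in its brightest probe set, and by 0.024 without olanzapine 18. Of the 3 Mbp probe sets 2 were lower. The summed intensity of the 7 glial and vascular markers was 12536 to 16486 in saline and 11180 to 14440 in olanzapine. The 3 arrays with the highest Ppp1r1b, saline 15, olanzapine 18 and olanzapine 9, also had the highest of these sums, 16486, 14440 and 14232. The same 3 arrays also had the highest sums of the dopamine neuron markers, 2639, 2049 and 1914. For the deep-layer markers olanzapine 18 and saline 15 had the highest sums, 18613 and 18199. Olanzapine 9 was at 14312 there, inside the range of the other arrays. These matches were noticed after the values were seen. The part of glial, vascular, dopamine neuron or deep-layer RNA in the Ppp1r1b values was not tested.

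The genes through which the receptors reach DARPP-32 were read from the same fit. Of 23 genes for G proteins, adenylyl cyclase, protein kinase A, phosphatases, kinases and phosphodiesterases of this pathway, 0 passed the adjusted test. At an unadjusted p under 0.05 there were 5 lower and 0 higher, where 3.09% and 3.91% of all probe sets were, and the median log2 difference was -0.089. The count of 5 was 2 without saline 14, saline 15 or olanzapine 14, and 3 without olanzapine 9, where 1 was higher. It was 4 without saline 17, olanzapine 18 or olanzapine 19, and 6 without saline 19. It was 2 without the mean-variance trend, 3 after median centring and 0 with a replicate block. With array weights, either other pseudocount or the filter at the 40th percentile it stayed at 5. After quantile normalization or cyclic loess 1 was lower and 2 were higher. The 5, named after their values were seen except for Ppp3ca, were the protein kinase A genes Prkacb and Prkar1a, the protein phosphatase 1 gene Ppp1cc, the protein phosphatase 2A subunit gene Ppp2r5d and the calcineurin gene Ppp3ca. All but Ppp2r5d were in the top 5% of probe sets by brightness, where the median difference was -0.11 in the main setting and 0.00068 with quantile normalization. Under quantile normalization 1 of the 5 was still lower at that level, Ppp2r5d at -0.59, and 2 other genes of the list were higher. Ppp2r5d had 2 probe sets, of which only 1 was lower in the main setting. Ppp3ca, whose product removes the phosphate that protein kinase A adds to DARPP-32, was at 16067 ± 1341 in saline and 13289 ± 807 in olanzapine. The log2 difference of -0.27 (SE 0.09) became -0.0050 after quantile normalization and -0.065 after cyclic loess. After median centring it was -0.32. Of the 3 Ppp3ca probe sets 2 were lower, both at an unadjusted limma p under 0.05 in the main setting.

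Other named genes of the pathway differed less in the main setting. Adcy5, the main striatal adenylyl cyclase gene, differed by -0.045 (SE 0.22) and Gnal, which encodes the stimulatory G protein subunit of the striatum, by -0.11 (SE 0.16). Prkaca, a catalytic subunit gene of protein kinase A, differed by 0.20 (SE 0.11) and its regulatory partner gene Prkar2b by -0.10 (SE 0.09). After quantile normalization Prkaca differed by 0.26 (unadjusted limma p 0.0268), so it is among the genes of the list that were higher there. Cdk5 differed by -0.045 (SE 0.20), Ppp1ca by -0.082 (SE 0.08) and the phosphodiesterase gene Pde1b by -0.18 (SE 0.13). Among 14 genes of receptor-binding and desensitising proteins 7 were higher and 7 lower, and 0 had an unadjusted p under 0.05. Ncs1, which encodes a calcium sensor that binds the D2 receptor, differed by 0.33 (SE 0.17), and by 0.15 without saline 15, its lowest animal. Caly, the gene of a D1 receptor partner, differed by 0.15 (SE 0.15), and by 0.060 without olanzapine 14. The arrestin gene Arrb2 differed by -0.029 (SE 0.14) and the receptor kinase gene Grk3 by -0.13 (SE 0.20). Ncs1 had 4 probe sets, of which 1 was lower.

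Of 8 further genes for phosphatase 1 regulators and cyclic AMP-regulated phosphoproteins related to DARPP-32, 5 were higher and 3 lower. The only one with an unadjusted p under 0.05 was Arpp21, a phosphoprotein gene of striatum and cortex. Of all probe sets 3.09% were lower at that level. Arpp21 was at 7333 ± 852 in saline and 5991 ± 451 in olanzapine, a log2 difference of -0.28 (SE 0.10), and -0.17 after quantile normalization. Its 3 probe sets were all lower and 1 of them had an unadjusted p under 0.05. That probe set was at brightness percentile 98.5, and its unadjusted limma p after quantile normalization was 0.0792. Ppp1r1a, the gene of the closest relative of DARPP-32, differed by 0.054 (SE 0.15) and Ppp1r9b, the gene of the scaffold spinophilin, by 0.072 (SE 0.08).

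For each member gene, the genes with the most similar pattern over the 8 arrays were listed by Pearson's r of the log2 values, among 13104 probe sets with 1 symbol above the 40th percentile. Drd1 (1368478_at) was most like Arrdc3 (r = 0.95), Ppt1 (0.93) and Nsd2 (0.93). Ppp1r1b was most like Fuca1 (0.98), Tlcd4 (0.96) and Cyp3a9 (0.94). Drd2 was most like Nipsnap2 (0.99), Sri (0.99) and Prkcb (0.98), and Drd4 (1394384_at) was most like Sgsm1 (0.98), Notch4 (0.96) and Dido1 (0.95). For Drd3 these were Dhx58 (0.94), Ddb2 (0.93) and Stra6 (0.92), and for Drd5 they were Slc25a22 (0.96), LRRTM1 (0.96) and Med27 (0.95). With 8 arrays and so many probe sets, an r above 0.92 was found for every member, the dimmest included, and the lists are a description of these arrays.

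**Figure D4:**
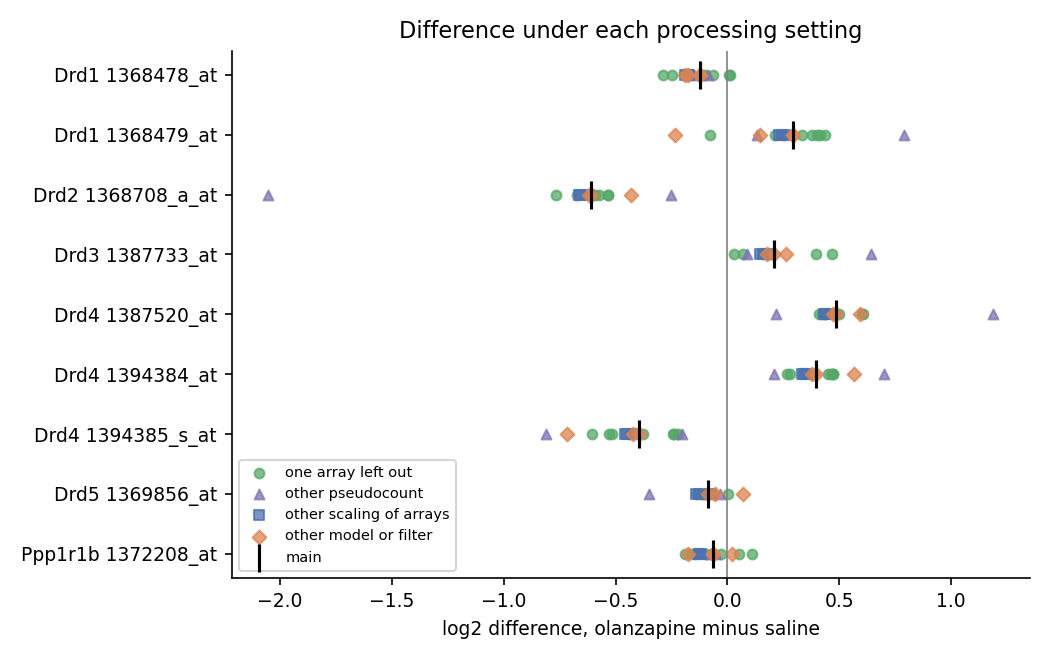
Log2 difference, olanzapine minus saline (x axis), of each member probe set under the main setting (black bar) and under each alternative, by kind: 1 array left out (green), another pseudocount (purple), another scaling of the arrays (blue) and another model or filter (orange). Drd2 is to the left of 0 in every alternative run, whereas Drd1, Drd5 and Ppp1r1b have points on both sides.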

How the data were processed

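Frontal cortex RNA of 8 rats was measured on an Affymetrix rat array. The deposited values are linear probe set intensities, and their mean without the lowest and highest 2% was 500.0 on every array, so the authors had scaled the arrays to a common trimmed mean. No source used here names the software, the background correction or the detection calls. Array medians were 159 to 191. Each array's correlations with the other 7 had a median of 0.949 to 0.968. The number of arrays limits the precision.

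Of 31099 probe sets 57 controls were left out. The deposited intensities were converted to log2(intensity + 63.4), and olanzapine was compared with saline in limma 3.58.1 under R 4.3.3 (lmFit, eBayes with a mean-variance trend, two-sided, no covariates), with Benjamini-Hochberg adjustment over all 31042 probe sets at 0.05. No filter on low values was applied, because dim members were to be included. Exact permutation tests used the mean log2 value. The fit was tested on simulated data with the real means and moderated spreads. Of the changes put in on the log2(intensity + 63.4) scale, 21.6% were called at 1.5-fold, 68.4% at 2-fold and 97.2% at 3-fold. Having 0 probe sets called therefore does not show that nothing changed.

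Names came from the platform's annotation table, and older symbols were replaced through their Entrez numbers with those of a RefSeq table (GRCr8). Of the probe sets 20826 had 1 symbol, 436 several and 9780 none. In lists each gene stood with its brightest probe set. All member probe sets, list genes marked beforehand and the 3 most similar genes per member were named. Members and lists were chosen with earlier results of these data known. Promoters were matched for 5 of the 6 genes in RefSeq (GRCr8), Ppp1r1b being the exception. Alternatives were a filter at the 40th percentile, pseudocounts of 1 and 200, 3 scalings (quantile, median centring, cyclic loess), no trend, array weights, a replicate block and each array left out.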

Additional observations from a re-analysis of the deposited data

Results flagged for a closer look

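In 72 groups of 4 animals examined, those of the members and of the named list genes, 3 held an animal whose gap to the nearest other took up more of the group's range on the log2 scale than Dixon's 95% limit for 4 values, where chance gives about 1 in 20 groups. In Drd1 1368479_at saline 15 was at 6.21, against 7.66 to 7.76 in the other saline animals. In Pde1b saline 17 was at 10.10, against 10.53 to 10.59. In Ncs1 saline 15 was at 9.79, against 10.47 to 10.59. Saline 15 also had the highest Ppp1r1b and Drd5 of all animals and the lowest median correlation with the other arrays, 0.949. It had the highest summed intensity of the glial and vascular markers, 16486 against 12536 to 13384 in the other saline animals, and of the dopamine neuron markers, 2639 against 1760 to 1820. Of the dopamine neuron markers Aldh1a1 had the highest mean, and it ran from 784 to 1627 over the saline animals. Th and Slc6a3 reached only 27.8 and 127 in saline. Whether saline 15 held more RNA of dopamine neurons was not tested.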

How the results depend on the processing

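Under 17 alternatives 0 probe sets of the whole array and 0 members passed the adjusted limma test, where the main setting had 2173 probe sets at an unadjusted p under 0.05. Of the 9 members 2 were at an unadjusted p under 0.05, and this count was 0 with a filter at the 40th percentile, which removes both, 1 with a pseudocount of 1, 1 after quantile normalization, 1 after median centring, and 1 to 2 with 1 array left out. With the animal number as a replicate block it was 1, Drd4 1394385_s_at, and the Drd2 difference was -0.43 (unadjusted limma p 0.144). The numbers 14 and 19 occur in both groups but belong to different animals, the deviations of same-numbered animals from their group means correlated at 0.071 and 0.089, and the blocked fit leaves 1 residual degree of freedom.

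Members kept their sign in 138 of 147 alternatives. Drd2, Drd3 and the 3 Drd4 probe sets kept it in every alternative run. Under the replicate block Drd1 1368479_at was -0.23 and Drd5 was 0.068, and with array weights Ppp1r1b was 0.022. With 1 array left out Drd1 1368478_at ran from -0.29 to 0.013, Drd1 1368479_at from -0.079 to 0.44, Drd5 from -0.14 to 0.0019 and Ppp1r1b from -0.19 to 0.11. The medians of the lists moved by more than the spread between saline animals in 13 of 162 alternatives. The causes were not tested. Dimness limits what can be said of 6 of the 9 member probe sets.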

Other observations

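Genes that mark the dopamine neurons themselves, whose cell bodies lie in the midbrain, were also on the array. Of 8 such genes 4 passed the 40th percentile, and 0 had an unadjusted p under 0.05. Th, which encodes the first enzyme of dopamine synthesis, was at 18.2 ± 9.95 in saline and 23.2 ± 12.5 in olanzapine (SD, n = 4 each), and the dopamine transporter gene Slc6a3 was at 68.0 ± 45.3 and 46.1 ± 32.6. Both lay below that limit, as did Drd2, Drd3, Drd4 and Drd5.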
